A study of Mus musculus with 6 samples.

Results

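A set of 10 genes that mark simple epithelium and mesothelium was followed through RNA sequencing libraries of mouse T cells. They were taken by name from the deposited gene table, which listed all 10 among its 54532 genes. They comprise 4 keratins (Krt7, Krt8, Krt18 and Krt19), the surface molecules Epcam, Msln, Upk1b and Upk3b, the transcription factor Wt1 and the galectin Lgals7. The libraries held T cells from C57BL/6 mouse spleens that had been pre-activated with anti-CD3/CD28 beads, kept in medium with interleukin-2 and then co-cultured with ID8, a tumour line that arose from ovarian surface epithelium of C57BL/6 mice. Pretreatment of the ID8 cells was with cisplatin (40 µM by the labels) for 3 libraries and with PBS for the other 3. T cells were named as the sequenced cells, and the sources used here do not say how far ID8 cells were removed before RNA was extracted. No library of ID8 cells alone was analysed here, so in these bulk samples fewer ID8 cells and less RNA per cell cannot be told apart. The labels do not say that replicates came from separate mice or cultures, and p-values then measure only the spread between these libraries, which may be technical.

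Keratins are the intermediate filament proteins of epithelia, and a filament is built from pairs of an acidic type I chain and a basic type II chain. Krt8 (type II) and Krt18 (type I) are the pair of simple epithelia, Krt19 is a further type I chain, and Krt7 is a type II chain of glandular and ductal epithelium. The ovarian surface is covered by a modified mesothelium. Mesothelial cells carry mesothelin (Msln), a glycosylphosphatidylinositol-anchored surface protein, and express Wt1, a zinc-finger factor needed for the development of the gonad and kidney. Upk1b, a tetraspanin, and Upk3b are uroplakins, proteins first known from the bladder lining that are also made in mesothelium. Epcam is an adhesion molecule of most glandular epithelia, and Lgals7 is a galectin, a lectin binding galactose-containing sugars, typical of stratified epithelium. Mature T cells are not known for simple keratins, mesothelin, uroplakins or Wt1.

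Krt7, Krt8 and Krt18 lie in the keratin cluster of chromosome 15, and Krt7 was far below Krt8 and Krt18 in level. Epcam was the gene whose libraries overlapped between groups. The sequences before the RefSeq start sites of these 4 are therefore shown. They come from the RefSeq promoters of GRCm38.p6, which held 6 of the 10 genes (these 4, Upk3b and Lgals7). Each is written 5′ to 3′ on the gene's own strand and covers the 250 bases before the RefSeq start, less any bases that the GENCODE M21 annotation places in an untranslated region (140 for Krt8, 36 for Krt18, 1 for Krt7 and 0 for Epcam). The positions are chr15:102004483-102004592 on the minus strand for Krt8, chr15:102027966-102028179 on the plus strand for Krt18, chr15:101412153-101412401 on the plus strand for Krt7 and chr17:87635729-87635978 on the plus strand for Epcam. The Krt7 window lies downstream of the gene start in the deposited table (101411043), and so inside the gene as annotated there. The Lgals7 window, which is not printed, does so too. Capitals mark the GC box GGGCGG on either strand.
Krt8: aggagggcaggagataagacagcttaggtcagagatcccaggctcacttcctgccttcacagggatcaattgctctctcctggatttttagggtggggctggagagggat
Krt18: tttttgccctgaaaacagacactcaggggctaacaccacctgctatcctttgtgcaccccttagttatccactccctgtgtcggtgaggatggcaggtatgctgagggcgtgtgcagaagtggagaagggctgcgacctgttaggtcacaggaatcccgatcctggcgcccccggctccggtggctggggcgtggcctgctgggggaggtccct
Krt7: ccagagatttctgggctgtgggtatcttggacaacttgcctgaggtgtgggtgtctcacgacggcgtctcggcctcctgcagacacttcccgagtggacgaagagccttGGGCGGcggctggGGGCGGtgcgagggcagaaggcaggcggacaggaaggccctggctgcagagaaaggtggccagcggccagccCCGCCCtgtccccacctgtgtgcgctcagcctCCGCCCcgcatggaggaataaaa
Epcam: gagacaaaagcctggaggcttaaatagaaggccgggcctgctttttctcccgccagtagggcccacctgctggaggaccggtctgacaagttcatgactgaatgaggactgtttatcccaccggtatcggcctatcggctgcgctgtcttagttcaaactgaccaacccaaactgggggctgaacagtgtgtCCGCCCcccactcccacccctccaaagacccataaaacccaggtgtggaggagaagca

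The promoter windows of the partner genes Krt8 and Krt18 held no GC box, and that of the low-level Krt7 held 4, whose far ends lay 141, 128, 56 and 24 bases before the start. Epcam held 1 at 58 bases and Lgals7 1 at 197 bases, and 32.7% of the 32851 RefSeq promoter windows of 250 bases held at least 1. The short TATA motif TATAA, searched on both strands, was found in the Krt18 window alone, 19 bases before the start in the part not printed, and in 22.8% of all windows. The longer TATAAA, which contains TATAA, was in none of the 6 windows and in 12.4% of all. The CCAAT motif (33.8% of all windows), the AP-1 motif TGANTCA (6.75%) and GCGGGGGCG, a motif that EGR proteins and Wt1 can bind (2.57%), were in none of the 6. CpG pairs numbered 16 in the Krt7 window, 12 in Krt18, 8 in Epcam, 5 in Lgals7, 3 in Krt8 and 2 in Upk3b, against a median of 6 over all windows. These matches describe letters in a window and not sites shown to be bound.

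With cisplatin-pretreated ID8 cells, 8 of the 10 transcripts fell strongly, and those 8 kept between 8.19% and 23.8% of their level in the PBS libraries. Krt19, Wt1 and Lgals7 fell most, Krt18, Upk1b and Upk3b stood between, and Krt8 and Msln fell least among the 8. Epcam was low in both groups and did not pass the test, and Krt7 was too low for the main test. Levels are in FPKM, which are reads scaled for the length of the gene and for the library. The groups were compared by limma on log2(FPKM + 0.1), and a gene was tested if its 6 libraries averaged 0.5 FPKM or more, as 15874 genes did. A gene was called at a Benjamini-Hochberg adjusted p under 0.05 over all tested genes and at least a 2-fold change. Of the 9 genes tested, 8 were called lower and 0 higher, where 12.8% of all tested genes were called lower and 4.11% higher. The 3 cisplatin libraries lay below the 3 PBS libraries for 9 of the 10 genes, Krt7 included, against 32.3% of all tested genes, and 31.9% of tested genes lay the other way. The 9 tested genes, Epcam among them, had a median log2 fold change of -2.61, against 0.03 over every gene tested. Only 5.34% of the tested genes fell at least as much as Msln, which had the smallest fall among the 8.

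**Figure D1:**
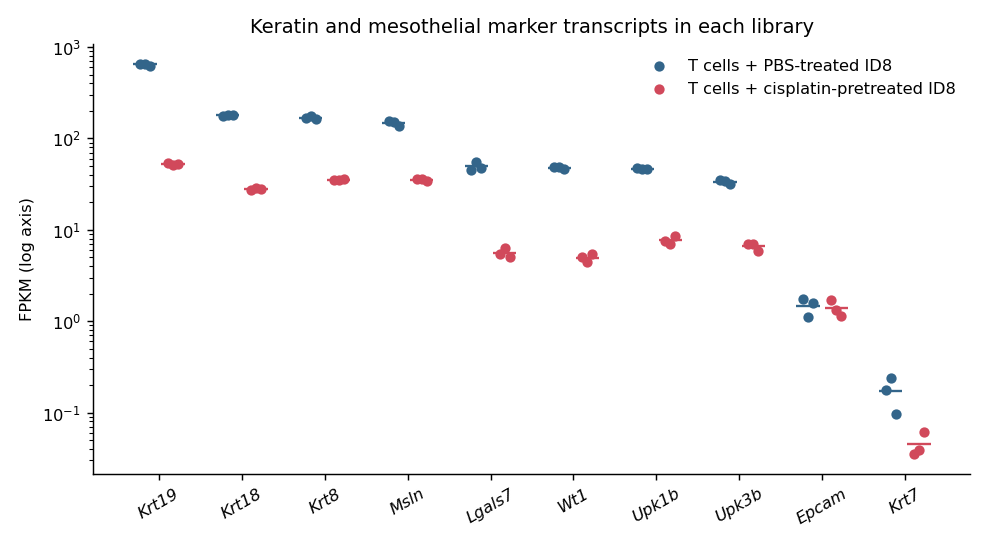
FPKM (log axis) of the 10 transcripts in each library, with PBS libraries in blue, cisplatin libraries in red and a line at each group's mean of 3. The blue and red points are apart for 9 genes, from Krt19 (646 against 52.9 FPKM) down to Krt7 (0.171 against 0.0450 FPKM), and mixed for Epcam.

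Most markers of blood cells moved the other way in the same libraries. All 12 T-cell markers listed (Cd3d, Trac, Cd4, Cd8a and others) passed the adjusted p of limma as higher, none by 2-fold, and their summed level was 1091 to 1177 FPKM in the PBS and 1723 to 1792 FPKM in the cisplatin libraries. All 6 B-cell markers were likewise higher, 1 of them (Ighm) called, with sums of 1618 to 1698 and 3522 to 3605 FPKM. Of 8 myeloid markers, 5 of the 6 tested passed as higher and 3 were called, with sums of 58.7 to 63.1 and 115 to 133 FPKM. Cd68, the other one tested, was level (log2 fold change 0.004, limma adjusted p = 0.965), and S100a8 and S100a9 were under the filter. Over all tested genes, 27.5% passed the adjusted p of limma as higher and 4.11% were called higher. The 3 endothelial markers summed to 13.4 to 13.95 and 20.5 to 21.4 FPKM, nearly all of it Pecam1, which white blood cells also express. The study used Sparc, Igfbp6 and Igfbp5 as tumour markers in its mouse single-cell data, not in these co-cultures. Sparc and Igfbp6 were called lower here (log2 fold change -2.86 and -2.30), beside 12.8% of all tested genes, and Igfbp5 was under the filter. These 3 together summed to 243 to 254 and 36.3 to 38.6 FPKM. The 4 fibroblast markers summed to 40.5 to 42.3 and 8.85 to 9.05 FPKM, most of it Dcn. Centring each library on its T-cell markers lowers every log2 fold change by 0.526, which turns the sign of 6 of the 12 T-cell markers by construction and, among those of other blood cells, that of Cd79a (-0.14) and Itgax (-0.01), which had passed as higher. Ighm was not called under quantile normalization (0.51) or T-cell centring (0.64), nor Csf1r with a pseudocount of 1 (0.99) or T-cell centring (0.82), and Adgre1 lost its call under several alternatives, among them leaving out PBS replicate 1 (0.97) or 2 (1.04), and was not tested when any cisplatin library was left out. None of these markers was without reads, and the part of the cell mixture in the falls described here was not tested. All 6 libraries were of like depth, with 30606569 to 32169496 reads on genes rebuilt from the FPKM.

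Krt19, on chromosome 11 from 100140810 to 100148665 (GRCm38, minus strand), was the most abundant of the 10 in both groups. Its level was 651, 661 and 626 FPKM in PBS replicates 1, 2 and 3 and 54.5, 51.6 and 52.5 FPKM in cisplatin replicates 1, 2 and 3. Every PBS library was thus far above every cisplatin library, and the spread within a group was small beside the gap. The mean fell from 646 ± 18.1 to 52.9 ± 1.46 FPKM (SD, n = 3), which leaves 8.19% or a 12.2-fold difference. The log2 fold change was -3.61 (standard error 0.035, 95% interval -3.69 to -3.52, limma adjusted p = 5.2e-08). Only 0.561% of the tested genes fell more. By level, Krt19 ranked 37 among all genes in the PBS libraries and 845 in the cisplatin libraries.

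Krt18, the type I partner of Krt8, lies on chromosome 15 from 102028180 to 102032027 on the plus strand. It was at 177, 182 and 181 FPKM in the PBS and 27.5, 29.0 and 27.9 FPKM in the cisplatin libraries. The groups were well apart, and the coefficient of variation of replicates was 1.45% and 2.63%. Its log2 fold change was -2.67 (standard error 0.031, limma adjusted p = 5.9e-08), and 15.7% of the PBS level was left. Krt8, on the minus strand of the same chromosome from 101996698 to 102004482, is separated from Krt18 by 23697 bases. It was at 168, 176 and 165 FPKM in the PBS and 35.5, 34.9 and 35.6 FPKM in the cisplatin libraries. Krt8 was therefore a little below Krt18 in the PBS libraries and above it in the cisplatin libraries. The log2 fold change of Krt8 was -2.26 (standard error 0.034, limma adjusted p = 8.3e-08), and 20.9% was left. Reads of near-identical copies can be split between genes, and Krt8-ps, a pseudogene of Krt8, drew 1 to 21 reads a library, or 0.141% of the Krt8 reads over the 6 libraries.

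Krt7, 566384 bases from Krt8 on chromosome 15 (101411043 to 101430313, plus strand), was nearly silent. It had 0.175, 0.241 and 0.0971 FPKM in the PBS and 0.0351, 0.0385 and 0.0613 FPKM in the cisplatin libraries, from 21 to 51 and from 8 to 14 reads. The lowest PBS library was still above the highest cisplatin library, but the reads were few and the gene stayed under the filter of the main test. The length behind its FPKM, 7049 bases, is the union of all annotated exons, so a shorter transcript would have a higher FPKM. With no filter, the limma log2 fold change was -0.87 with an adjusted p of 0.089. With limma voom on the rebuilt reads, which weights genes by their counts, it was -1.74 (95% interval -2.87 to -0.61, adjusted p = 0.0089), and 13.1% of the 18541 genes tested that way were called lower. Whether Krt7 is called thus depended on the test.

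The make-up of the keratin transcripts differed between the groups. Together the 4 genes summed to 995 ± 24.0 FPKM in the PBS and 116 ± 1.01 FPKM in the cisplatin libraries (SD, n = 3). Krt19 made up 64.9% ± 0.480 of this sum in the PBS and 45.4% ± 0.856 in the cisplatin libraries. The type II chains Krt7 and Krt8 made up 17.0% ± 0.243 and 30.4% ± 0.273, although both genes had lower FPKM in the cisplatin libraries. The log2 ratio of type II to type I transcripts, taken within each library so that no scaling between libraries enters it, was -2.30, -2.25 and -2.29 in the PBS and -1.20, -1.20 and -1.17 in the cisplatin libraries. The groups did not overlap, and the ratio differed by 1.09 (exact two-sided permutation test, p = 0.1, which is as low as this test can go with 3 libraries a group).

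**Figure D2:**
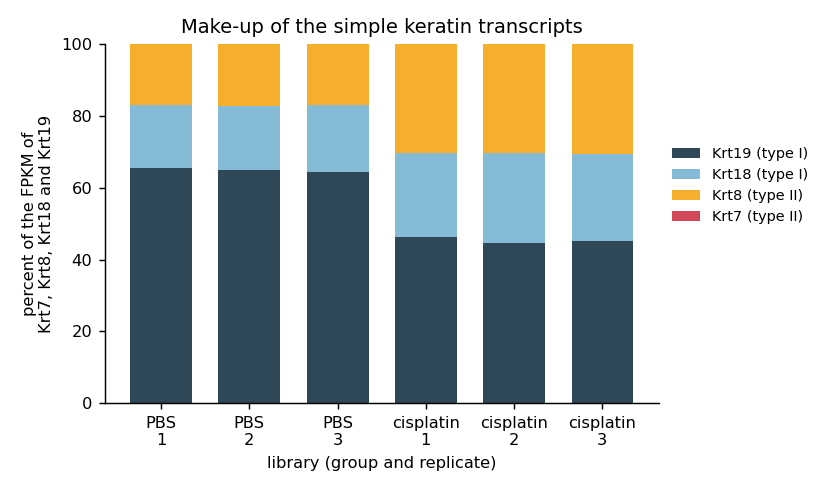
Share of each keratin in the summed FPKM of Krt7, Krt8, Krt18 and Krt19 (percent, stacked to 100) in each of the 6 libraries. Krt19 takes on average 64.9% of the PBS bars and 45.4% of the cisplatin bars, Krt8 takes the larger share in the cisplatin bars, and Krt7 is too small to see.

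The mesothelial genes fell with the keratins. Msln lies on chromosome 17 from 25748614 to 25754327 (minus strand) and was at 157, 149 and 138 FPKM in the PBS and 35.8, 35.8 and 34.1 FPKM in the cisplatin libraries. It was close to Krt8 in level in both groups, and the Msln and Krt8 libraries overlapped in the cisplatin group. The log2 fold change of Msln was -2.07 (standard error 0.051, limma adjusted p = 3.3e-07), and 23.8% was left. Wt1 (chromosome 2, 105126529 to 105173616, plus strand) was at 49.3, 48.2 and 46.7 FPKM in the PBS and 4.998, 4.49 and 5.42 FPKM in the cisplatin libraries. The Wt1 transcript thus fell further than that of Msln, to 10.3% of its PBS level. The log2 fold change of Wt1 was -3.25 (standard error 0.071, limma adjusted p = 2.1e-07).

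The uroplakin Upk1b (chromosome 16, 38773184 to 38800328, minus strand) was at 47.2, 46.6 and 46.8 FPKM in the PBS and 7.53, 6.93 and 8.45 FPKM in the cisplatin libraries. Its PBS replicates were the tightest of the 10 genes, with a coefficient of variation of 0.679%. This is below the 1.84% that counting reads alone would give, so it is no trait of the gene. The log2 fold change was -2.61 (standard error 0.071, limma adjusted p = 4.7e-07). Upk3b (chromosome 5, 136038496 to 136046487, plus strand) was at 35.1, 33.9 and 32.1 FPKM in the PBS and 7.06, 6.92 and 5.80 FPKM in the cisplatin libraries, and its groups were also apart. The log2 fold change of Upk3b was -2.34 (standard error 0.082, limma adjusted p = 1.4e-06). Of the other uroplakins, Upk2 and Upk3a, which belong to the bladder plaque, had no reads in any library. Upk1a was the only other uroplakin tested and was not called (log2 fold change 0.76, limma adjusted p = 0.324), and Upk3bl, under the filter, averaged 0.363 ± 0.124 FPKM in the PBS and 0.0395 ± 0.0493 FPKM in the cisplatin libraries (SD, n = 3).

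Lgals7 (chromosome 7, 28863853 to 28866284, plus strand) was at 45.4, 55.5 and 47.1 FPKM in the PBS and 5.40, 6.25 and 4.99 FPKM in the cisplatin libraries. It was the most variable of the 8 lowered genes, with a coefficient of variation of 10.9% and 11.6%, yet the groups stayed far apart. Its log2 fold change was -3.13 (standard error 0.105, limma adjusted p = 1.1e-06), and 11.2% was left.

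Epcam (chromosome 17, 87635979 to 87651106, plus strand) stood apart from the other tested genes. It was at 1.73, 1.11 and 1.597 FPKM in the PBS and 1.70, 1.32 and 1.15 FPKM in the cisplatin libraries, from 68 to 106 and from 76 to 112 reads. The groups overlapped, and PBS replicate 2 had the lowest value of all 6 libraries. The log2 fold change was -0.08 (standard error 0.22, limma adjusted p = 0.777), and its 95% interval, from -0.61 to 0.45, does not reach the fall of any of the 8 lowered genes. It changed sign under quantile normalization (0.11) and without PBS replicate 1 or cisplatin replicate 3 (0.04 each). With the libraries centred on the T-cell markers instead, as if those genes were constant, it was -0.61 with a limma adjusted p of 0.049.

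**Figure D3:**
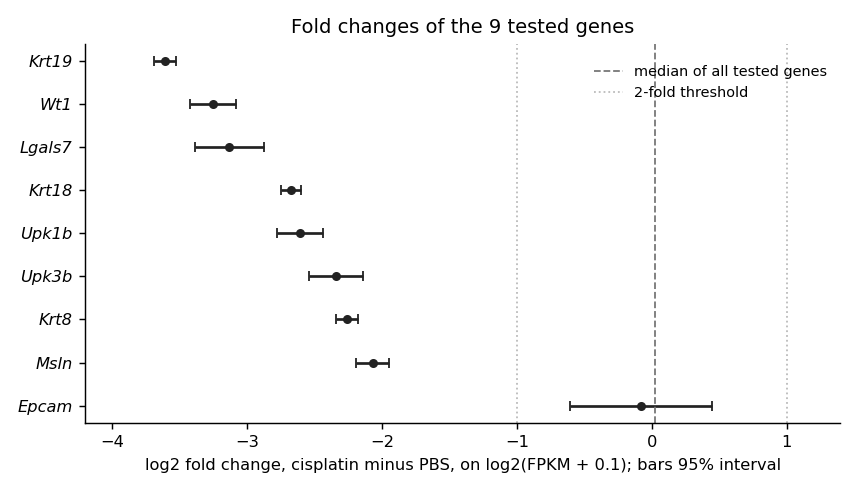
Log2 fold change (cisplatin minus PBS, on log2(FPKM + 0.1)) of the 9 tested genes with 95% intervals from limma, the 2-fold threshold dotted and the median of all tested genes dashed. Of the 9 intervals, 8 lie left of the 2-fold threshold, from Krt19 at -3.61 to Msln at -2.07, and that of Epcam spans 0.

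Within the PBS libraries the order of levels was Krt19, Krt18, Krt8, Msln, Lgals7, Wt1, Upk1b, Upk3b, Epcam and Krt7. Lgals7 and Wt1, and Wt1 and Upk1b, overlapped between libraries, and the other neighbours did not. Within the cisplatin libraries it was Krt19, Krt8, Msln, Krt18, Upk1b, Upk3b, Lgals7, Wt1, Epcam and Krt7, and Krt8 with Msln, Upk1b with Upk3b, Upk3b with Lgals7 and Lgals7 with Wt1 overlapped. Krt18 thus moved from the second to the fourth place, and Wt1 and Lgals7 had means above both uroplakins in the PBS and below both in the cisplatin libraries. All 10 genes together summed to 1323 ± 35.8 FPKM in the PBS and 178 ± 2.04 FPKM in the cisplatin libraries (SD, n = 3), or 0.443% and 0.0587% of all FPKM.

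To set the genes against each other without any scaling between libraries, each tested gene was divided by Krt18 in the same library. The difference of the log2 ratios, cisplatin minus PBS, was negative for Krt19 (-0.94), Wt1 (-0.58) and Lgals7 (-0.46), so that these genes stood lower beside Krt18 in the cisplatin libraries. It was positive for Upk3b (0.33), Krt8 (0.41) and Msln (0.60), which stood higher. For these 6 genes and for Epcam the 3 ratios of each group did not overlap (exact two-sided permutation test, p = 0.1 each, Benjamini-Hochberg adjusted p = 0.1125 over 9 ratios, with 0.1 the smallest p the design allows). Krt8, for example, was at -0.08, -0.05 and -0.13 relative to Krt18 in the PBS and at 0.36, 0.27 and 0.35 in the cisplatin libraries. The ratio of Upk1b to Krt18 differed by 0.07 with overlapping groups (exact permutation p = 0.6) and turned to -0.01 without cisplatin replicate 3. Relative to Krt18, Epcam was at -6.85 ± 0.334 in the PBS and -4.26 ± 0.285 in the cisplatin libraries on the log2 scale (SD, n = 3), while its own level in FPKM did not pass the test.

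**Figure D4:**
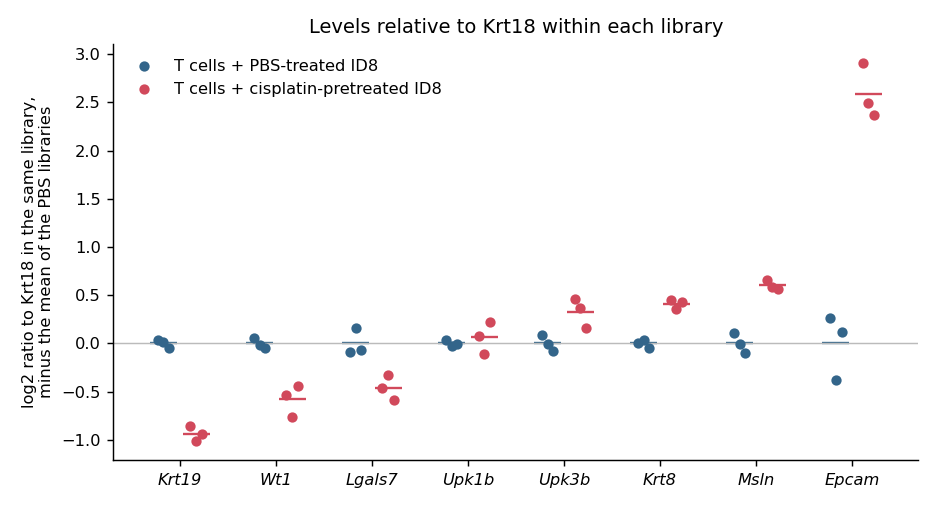
Log2 ratio of each tested gene to Krt18 in the same library, minus the mean of the 3 PBS libraries, for PBS (blue) and cisplatin (red) libraries, with lines at group means. Red points lie below 0 for Krt19, Wt1 and Lgals7, on both sides of 0 for Upk1b and above 0 for Upk3b, Krt8, Msln and Epcam.

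The other keratins were almost silent. Of 50 other keratin genes, 16 had no reads and 47 were under the filter, with no library above 0.490 FPKM. Krt80, a type II keratin, was the exception. It fell from 10.5 ± 0.836 to 0.473 ± 0.0630 FPKM (SD, n = 3), a log2 fold change of -4.22 and a larger fall than that of any of the 10 genes. Krt10 and Krt222, the remaining keratins tested, averaged below 1 FPKM in each group and were not called.

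Transcripts of proteins that anchor keratins at the cell edge were lower in most cases. Of 11 plakins and desmosome genes, all tested, 8 were called lower (beside the 12.8% of all tested genes) and the median log2 fold change was -2.27. The plakophilins Pkp2 (-3.09) and Pkp1 (-3.07), desmoplakin (Dsp, -2.72) and plakoglobin (Jup, -2.27), which link keratin to desmosomes, were among them. So were the plakins Evpl (-2.72), Eppk1 (-2.39), Dst (-2.19) and Ppl (-2.07). Pkp1 was not tested when a mean of at least 1 FPKM was required. With 10 to 16 reads in a cisplatin library, the size of its fall is uncertain (-4.02 with voom). Macf1, Plec and Pkp3 passed the adjusted p in the other direction (log2 fold change 0.36, 0.11 and 0.42), where 27.5% of all tested genes did so as higher and 29.0% as lower. Under T-cell centring the sign of these 3 turned (-0.17, -0.41 and -0.10). Macf1 and Plec, cytolinkers made in many cell types, were the most abundant genes of the list.

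Of 18 further genes of mesothelium and ovarian surface, 7 were tested, with a median log2 fold change of -2.21. Of the 7, 6 were called lower, beside 12.8% of all tested genes. They were podoplanin (Pdpn, -2.21), the membrane glycoprotein Gpm6a (-3.38), the factors Gata4 (-3.49) and Gata6 (-2.44), Efemp1 (-1.70) and the claudin Cldn15 (-1.69). Gata4, an ovarian and mesothelial transcription factor, went from 30.8 ± 1.73 to 2.67 ± 0.276 FPKM (SD, n = 3). Slpi passed the adjusted p but not the fold (-0.79). The other 11, among them Muc16 and Calb2, did not exceed 0.753 FPKM in any library, and Tcf21 had no reads. With limma voom, which tested more of these low genes, 10 of the list were called lower, beside 13.1% of all genes tested that way.

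The receptor Amhr2 had the largest fall among the genes linked to Wt1. Of 9 genes known as Wt1 targets or partners in gonad and kidney, 7 were tested, with a median of -1.68. Of the 7, 4 were called lower, beside 12.8% of all tested genes. These were Amhr2, which binds anti-Müllerian hormone (log2 fold change -3.49), the ligand Wnt4 (-1.93), the steroidogenic factor Nr5a1 (-1.79) and podocalyxin (Podxl, -1.68). Spry1 (0.39), Areg (0.78) and Bmp7 (0.42) did not pass the test, and Pax2 and Nphs1 were at or near 0. Under T-cell centring Spry1 turned to -0.13 and Bmp7 to -0.10, and Areg kept its sign (0.25).

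Among 21 other epithelial genes, 9 were tested, with a median of -1.48. Of the 9, 5 were called lower, beside 12.8% of all tested genes. These were Cldn3 (-2.87), E-cadherin (Cdh1, -1.48), P-cadherin (Cdh3, -1.76), the splicing regulator Esrp2 (-2.35) and the factor Elf3 (-3.43). Cdh1 was no longer called with a pseudocount of 1 (-0.99), and Elf3 was not tested when a mean of at least 1 FPKM was required. Elf3 had only 1 to 19 reads in a cisplatin library, so the size of its fall is uncertain (-4.29 with TPM, -4.74 with voom). The protease St14 (0.60) and its inhibitor Spint2 (0.24) passed the adjusted p as higher, Spint2 turning to -0.28 under T-cell centring, and Muc1 (-0.47) did not pass the test. The highest of these genes in the PBS libraries, Cldn3, was at 14.8 ± 0.503 FPKM (SD, n = 3), far below Krt8 and Krt18.

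Most galectins other than Lgals7 were lower by less than the 2-fold threshold or not at all. Of 7 in the table, 6 were tested, with a median of -0.74. Of these, Lgals3 (-1.42) and Lgals2 (-2.57) were called lower, 2 of 6 beside 12.8% of all tested genes. Lgals1, the most abundant, went from 562 ± 26.4 to 346 ± 24.3 FPKM (SD, n = 3) and passed the adjusted p but not the fold (-0.70), as did Lgals9 (-0.79) and Lgals8 (-0.28). Lgals4 was level (0.005, limma adjusted p = 0.96). After centring on the T-cell markers 4 of these galectins were called lower, as were 3489 of all 15874 tested genes. Without a minimum fold 5 passed as lower, beside 29.0% of all tested genes.

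**Figure D5:**
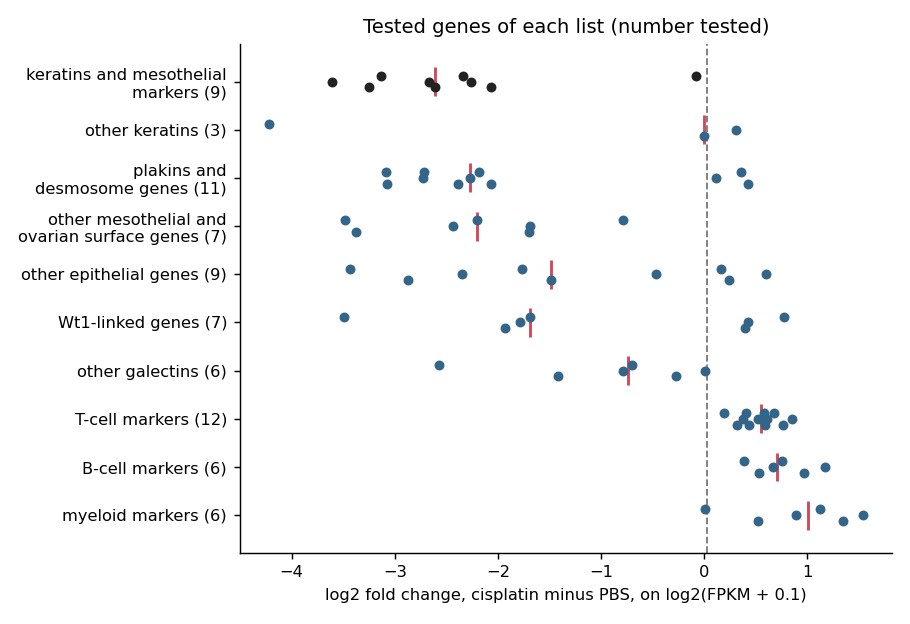
Log2 fold changes of the tested genes of each list (1 point a gene, number tested in parentheses, median as a red line), with the median of all tested genes dashed. The keratins and mesothelial markers, plakins and desmosome genes and further mesothelial genes have medians between -2.61 and -2.21, and T-cell, B-cell and myeloid markers lie at or above 0 on the FPKM as deposited, though not all of them after T-cell centring.

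The genes whose pattern over the 6 libraries was most like that of Krt19 and of Msln, the most abundant of the 6 among the 10 genes that are not keratins, were sought among the 8422 genes that averaged 5 FPKM or more, by the root-mean-square distance of centred log2 values. For Krt19 they were Mgat3 (distance 0.0352), Adamts9 (0.0429), Pgm2 (0.0506), Gfpt2 (0.0516) and Plod2 (0.0530), with log2 fold changes from -3.68 to -3.54. Pgm2, the most abundant of them, fell from 207 ± 2.84 to 17.6 ± 0.0880 FPKM (SD, n = 3). For Msln they were Ptgs1 (0.0251), Myo7a (0.0308), Ptgfrn (0.0395), Agrn (0.0440) and Syne2 (0.0449), with log2 fold changes from -2.13 to -1.997. With 3 libraries a group this likeness rests mainly on the size of the difference between the groups, and it is a description of 6 points.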

How the data were processed

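Poly-A RNA of T cells from 6 co-cultures (3 cisplatin, 3 PBS) was sequenced. The authors deposited FPKM values, counts divided by gene length and library size. The submitters' processing notes name fastp, HISAT2 2.0.5, featureCounts 1.5.0-p3 and mm10, whereas the methods name LifeScope for alignment and counting, so the aligner is uncertain. How strands and multi-mapping reads were counted is not given in the sources used here. Genes overlapping Krt7, Krt8 and Lgals7 on the other strand held 8 to 20 reads each over the 6 libraries. The table held 0 further sample columns. Gene coordinates equalled GENCODE M21 (GRCm38) for 53499 of 54409 genes and 8 of the 10 genes described (not Epcam and Msln, whose models differ).

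Groups came from the labels. FPKM were tested as log2(FPKM + 0.1), which understates changes of low genes, in limma 3.58.1 (R 4.3.3; lmFit, eBayes with trend) over the 15874 genes that averaged 0.5 FPKM or more, with Benjamini-Hochberg adjustment over all of them. Whole reads were rebuilt from FPKM, gene length and each library's step, with 100% of values within 0.1 of a whole read, and served for depth and for limma voom (at least 10 reads in at least 3 libraries). Read numbers cover counting error only. The FPKM denominator was 0.980 times the reads on genes in the PBS and 1.04 times in the cisplatin libraries. No 2 replicates were identical, and their reads differed beyond sampling noise (chi-square over its degrees of freedom, 5.36 to 6.44). The main test was not a count test because the deposited unit is FPKM, and limma voom on the rebuilt reads was run as an alternative. Ratios within libraries were compared by exact permutation tests in scipy 1.17.1 (python 3.11.15, numpy 2.4.6, pandas 2.3.3, figures with matplotlib 3.10.9). Only the limma and limma voom fits were tested on simulated data, in which rises and falls were drawn alike, unlike the calls made here.

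The 10 genes and the lists (other keratins, plakins and desmosome genes, mesothelial, epithelial and Wt1-linked genes, uroplakins, galectins and cell markers) were chosen with earlier results of these data known. All 10 were named, and the 5 genes nearest to the most abundant keratin and to the most abundant other member. The plan let any tested gene of a list be named, with the 3 highest first. That order was not kept in every list: genes called lower often come first, and some untested genes are named too. Alternatives were pseudocounts of 1 and 0.01, no filter or a mean of 1 FPKM, median-of-ratios, quantile, TPM and T-cell-marker scaling, no trend, voom, leaving out each library, the replicate block and no minimum fold. Those for the ratios were chosen after the data were seen. Of the tested epithelial genes, 1 is not reported here by name.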

Additional observations from a re-analysis of the deposited data

How the results depend on the processing

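Over 18 alternatives, 8 to 9 of the 10 genes were called lower and 0 higher; the ninth was Krt7 with voom. Of 153 values of the tested genes under the alternatives, 150 kept direction and call, the exceptions being Epcam, at 0.109 under quantile normalization and 0.036 both without PBS replicate 1 and without cisplatin replicate 3 (range -0.262 to 0.036 over the libraries left out). Krt19 ranged from -4.13 to -3.53 and Msln from -2.59 to -1.99. Of the further mesothelial genes, 10 were called with voom in place of 6. Of the other uroplakins, 1 was called with no filter and 1 with TPM in place of 0, and of the other keratins 2 with no filter in place of 1. In each of these 3 settings more genes were tested. Of the other galectins, 4 were called when centred on the T-cell markers and 5 with no minimum fold in place of 2. Centring lowers every log2 fold change by 0.526, which alone takes Lgals1 (-1.23) and Lgals9 (-1.31) past the 2-fold threshold. The ratio of Upk1b to Krt18 was -0.014 without cisplatin replicate 3 and up to 0.153 without another library. Of the epithelial genes, 4 in place of 5 were called with a pseudocount of 1 (without Cdh1) and with a mean of at least 1 FPKM (Elf3 not tested). With a pseudocount of 1, the ratios of Wt1 and Lgals7 to Krt18 moved to -0.408 and -0.309.

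The scaling moved the centre of the fold changes. Over all tested genes the median log2 fold change was 0.03 as deposited, 0.16 after quantile normalization, 0.10 with voom and -0.50 after centring on the T-cell markers. The share of calls that were lower was 75.7% as deposited (2034 lower, 653 higher), 64.6% with quantile normalization (1790 and 979), 68.2% with voom (2423 and 1127) and 95.6% with T-cell centring (3489 and 159). A pseudocount of 1 left 1451 lower and 311 higher calls. No pairing by replicate number showed in the deviations from the group means, which correlated at 0.0229, -0.063 and -0.0207 for libraries with the same number. Such correlations cannot exclude that these libraries shared a mouse or culture. With the replicate block, 8 of the 10 genes were called lower, and 2011 genes lower and 651 higher in all. Krt7 had at most 51 reads a library, and its coefficient of variation from counting alone was 16.6% in the PBS and 31.1% in the cisplatin libraries, against 42.2% and 31.7% between replicates. For Epcam, with at most 112 reads, counting gave 10.5% and 10.4%, against 22.01% and 20.2% between replicates.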
